A study of Mus musculus with 16 samples.

Results

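The fatty acid binding and uptake proteins described here are 8 mouse genes: the binding proteins Fabp3, Fabp4 and Fabp5, the surface receptor Cd36, and the transport proteins Slc27a1, Slc27a2, Slc27a3 and Slc27a4. They were chosen by gene symbol from a table of 46206 distinct symbols, and all 8 had a single entry and passed the filter on low values. RNA was sequenced from 16 libraries of fat, 4 from each of 4 depots: thigh adipose tissue (tAT), brown adipose tissue (BAT), epididymal white fat (eWAT), a visceral depot, and inguinal white fat (iWAT), a depot under the skin. Every group was fat of male C57BL66/J mice, and the series design states diet-induced obesity from high-fat feeding, so no lean animal is part of the comparison. The age of the mice and their number are not known here. Nothing in the labels ties a library to its own mouse, and the p-values therefore measure only the spread between libraries, which may be technical. The study set out to find a natural beige depot, and thigh fat is set beside brown and white fat for that question.

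Long-chain fatty acids reach a fat cell from lipoproteins and albumin in the blood. At the cell surface CD36 binds them and assists their entry, and the Slc27 proteins (FATPs) couple uptake to activation, since they are also acyl-CoA synthetases. Inside the cell the small FABPs carry the poorly soluble fatty acids between membranes, lipid droplets, mitochondria and the nucleus. White fat uses this route to store lipid, and brown fat also burns what it takes up for heat.

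Levels are FPKM, which is scaled to gene length and library total and allows genes to be compared within a library. Differences are on the log2(FPKM + 1) scale, the depot named first minus the other, with a standard error (SE), and adjusted p-values are from limma over 14991 tested genes, with a threshold of 0.05. The number of reads is unknown, because no counts were used. The FPKM of a library summed to between 818642 and 1073815, and 12447 to 14286 genes reached 1 FPKM. Adipocyte markers were abundant in every depot: 10 of them summed to 8954 to 10952 FPKM in tAT, 4495 to 5718 in BAT, 14024 to 14938 in eWAT and 12092 to 14518 in iWAT. Muscle transcripts set some libraries apart. The sum of 18 skeletal muscle markers was 28842, 29030.1 and 18372 FPKM in tAT 1, 2 and 4 but 315 in tAT 3. It was 3538 and 2905 in BAT 3 and 4, 148 and 128 in BAT 1 and 2, 70.01 to 87.5 in eWAT and 127 to 819 in iWAT. Of these markers 9 averaged below 1 FPKM in eWAT, 5 in iWAT and 1 each in tAT and BAT. The term muscle-laden is used here for 5 libraries, tAT 1, 2 and 4 with BAT 3 and 4. The 6 brown adipocyte markers summed to 905 to 2615 FPKM in tAT, 10914 to 14455 in BAT, 29.2 to 64.0 in eWAT and 107 to 195 in iWAT. Of these markers 4 averaged below 1 FPKM in eWAT, 2 in iWAT and 1 in tAT. Mitochondrially encoded genes took 19.1 to 22.8% of the FPKM in tAT, 11.9 to 15.4% in BAT, 7.57 to 9.83% in eWAT and 9.40 to 12.9% in iWAT. Of 37 such genes, 30 were listed at 0 in every BAT library and 22 or 23 in each other library. An exact 0 can be a failed estimate, so these shares do not rank BAT against the other depots. Scaling matters most for BAT. The median difference of all genes was 0.441 for tAT against BAT, -0.535 for BAT against iWAT and -0.517 for BAT against eWAT, and it was 0.0185, -0.0119 and -0.0104 after median-of-ratios scaling. A member that was lower in BAT by about that amount was lower by no more than the typical gene.

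The copy of Fabp3 is shown first, because it decides how far that gene's value can be trusted. Fabp3 (mm10 chr4:130308595-130315463, plus strand, 4 exons) has a processed pseudogene, Fabp3-ps1 (chr10:86731987-86732388), which is a copy of its coding sequence. In the GENCODE vM21 transcripts 399 of 402 coding bases were identical (99.25%). Counting from 1 at the A of the start codon, with the base of Fabp3 first, the differences were A40T, C297T and G334A. The stretch from base 275 to base 334 holds a pair of them, in capitals:

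Fabp3: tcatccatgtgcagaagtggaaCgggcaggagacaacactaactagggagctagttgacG

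Fabp3-ps1: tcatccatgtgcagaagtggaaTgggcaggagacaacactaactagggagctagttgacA

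Of all 50-base windows of the Fabp3 transcript, 37.3% also occurred in 3 other genes, and 29.2% in Fabp3-ps1, so reads from the coding part could be given to either copy. The pseudogene had 0.236 to 0.263 of the FPKM of Fabp3 in the 4 tAT libraries and 0.248 to 0.256 in the 4 BAT libraries, a near-constant share. In white fat, where both were low, the share varied more, from 0.246 to 0.419 in eWAT and from 0.0811 to 0.742 in iWAT. Gm10570 and Zcchc17 overlap Fabp3 on the other strand, and the sources used here do not tell if counting used strand. Fabp5 (chr3:10012548-10016607) shared 21.1% of its windows with 5 other genes, mostly Gm6166. Its level is therefore uncertain, by an amount that was not tested. Slc27a2 (chr2:126552407-126588243) shared 12.97% with Gm26697, a non-coding gene that overlaps it on the other strand. Slc27a1 (chr8:71568882-71587302) shared 1.75%. Fabp4 (chr3:10204088-10208576), Cd36 (chr5:17781690-17888801), Slc27a3 (chr3:90385239-90389938) and Slc27a4 (chr2:29802634-29817522) shared none.

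The sequence before the start site is shown for Fabp3 and Cd36, whose levels ran in opposite directions between brown and white fat. Sequences are from RefSeq (GRCm38.p6, the build of mm10), 5′ to 3′ on the gene's strand. For Fabp3 the 107 bases at chr4:130308488-130308594 are given, up to the first base annotated as its exon. For Cd36 the 250 bases at chr5:17835897-17836146 are given, before a start that lies inside the annotated span of the gene. Capitals mark AGGTCA on the opposite strand, the core motif of nuclear receptors.

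Fabp3: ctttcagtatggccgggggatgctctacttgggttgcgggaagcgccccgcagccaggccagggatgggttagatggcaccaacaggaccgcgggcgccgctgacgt

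Cd36: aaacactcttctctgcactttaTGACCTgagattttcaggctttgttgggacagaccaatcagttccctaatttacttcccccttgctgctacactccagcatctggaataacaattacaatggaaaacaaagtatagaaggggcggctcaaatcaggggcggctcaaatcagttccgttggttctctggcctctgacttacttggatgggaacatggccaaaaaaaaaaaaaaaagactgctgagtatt

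Over the 250 bases before the RefSeq start, AGGTCA (either strand) was found in Cd36, at -228 to -223, and in Slc27a2, at -220 to -215, and not in Fabp3, Slc27a3, Slc27a4 or any of 3 starts of Slc27a1. It was found in 14.0% of 32851 such windows. The direct repeat AGGTCANAGGTCA, which contains it and is read by PPAR with RXR, was in none of the windows of these 6 members and in 0.0335% of all. The TATA box letters TATAAA were also in none of them and in 12.4% of all. Fabp4 and Fabp5 were not searched. The window of Fabp3 was 64.8% G and C and that of Cd36 43.2%, against a median of 52.4% over all windows.

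Fabp3, the heart-type binding protein that also serves heart, muscle and brown fat, separated the depots most widely. It stood at 56.5, 76.9, 139 and 124 FPKM in tAT 1 to 4, at 2188, 1735, 1394 and 1533 in BAT 1 to 4, at 1.69, 0.634, 1.01 and 0.724 in eWAT, and at 0.387, 0.439, 0.763 and 2.63 in iWAT. The lowest thigh library was far above every white library and the highest far below every brown one. Thigh fat exceeded iWAT by 5.63 (SE 0.32, adjusted p = 1.23e-07) and eWAT by 5.57 (adjusted p = 1.09e-08), and stood below BAT by a difference of -4.17 (adjusted p = 4.96e-08). BAT exceeded iWAT by 9.80 (adjusted p = 2.22e-12) and eWAT by 9.74 (adjusted p = 1.91e-12). White depots did not differ beyond their spread, with 0.06 for eWAT minus iWAT (95% interval -0.63 to 0.75, adjusted p = 0.923). With the pseudogene's FPKM added, the rise in tAT was 5.80 against iWAT and 5.69 against eWAT, and the difference from BAT stayed at -4.17. In bulk tissue more cells of a type and more RNA per cell cannot be told apart.

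Muscle also makes Fabp3, so its values were set beside the muscle markers. The highest thigh value, 139 FPKM, was in tAT 3, where the muscle markers were at their thigh minimum and myoglobin (Mb) stood at 0.153 FPKM. The lowest, 56.5, was in tAT 1, with 28842 FPKM of muscle markers. With the muscle-laden libraries left out, and a single thigh library (tAT 3) remaining, Fabp3 in tAT exceeded iWAT by 6.21 (adjusted p = 0.000115) and eWAT by 6.14 (adjusted p = 3.09e-05). That library also had the highest brown marker sum of the thigh libraries (2615 FPKM), and the part of muscle in the Fabp3 of the other thigh libraries was not tested. The brown adipocyte markers showed the order that Fabp3 showed among thigh libraries: 6 of them summed to 905, 925, 2615 and 1630.3 FPKM in tAT 1 to 4. The FPKM of Fabp3 was 0.3004 to 0.507 of that of Ucp1, the heat-producing uncoupling protein, in tAT and 0.352 to 0.423 in BAT, overlapping ranges. In white fat, where both were low, it was 4.31 to 43.5 of that of Ucp1 in eWAT and 1.27 to 13.6 in iWAT. Against Cox8b, a subunit of the respiratory chain in brown fat and muscle, the ranges did not overlap: the FPKM of Fabp3 was 0.0769 to 0.118 of that of Cox8b in tAT and 0.258 to 0.309 in BAT. Cox8b is also a brown marker here and gave most of their sum in thigh fat: 683, 677, 1802 and 1044 FPKM in tAT 1 to 4.

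**Figure D1:**
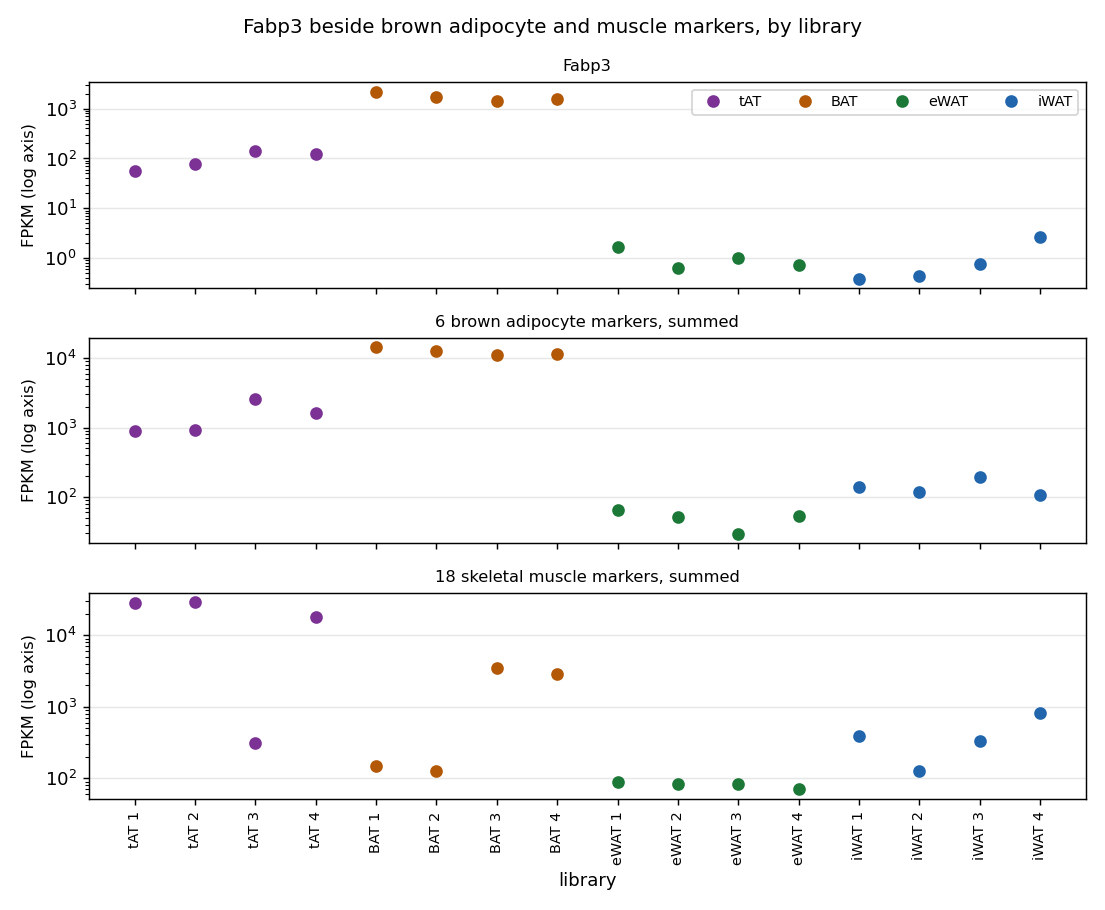
Fabp3 (top), the sum of 6 brown adipocyte markers (middle) and the sum of 18 skeletal muscle markers (bottom) in FPKM on log axes, 1 point per library, for tAT, BAT, eWAT and iWAT. Among thigh libraries Fabp3 was highest in tAT 3 (139 FPKM), where muscle markers were lowest, and the thigh libraries lay between BAT (1394 to 2188) and white fat (0.387 to 2.63).

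Fabp4, known as aP2 and the main lipid carrier of fat cells, was among the most abundant transcripts of every library. It ranked between 3 and 13 among all genes and took 1.09 to 2.16% of a library's FPKM. It stood at 10816, 10532, 18117 and 12698 FPKM in tAT 1 to 4, at 11032, 9633, 10177 and 8928 in BAT, at 19605, 18106, 15780.2 and 19855 in eWAT, and at 16358, 18631, 19664 and 20132 in iWAT. The muscle-laden thigh libraries fell below all white libraries, while tAT 3 lay within the white range. Fabp4 was lower in tAT than in iWAT by a difference of -0.55 (adjusted p = 0.0129) and than in eWAT by -0.52 (adjusted p = 0.0113). Without the muscle-laden libraries, which left tAT 3 alone for thigh fat, these differences were -0.0408 and -0.0115. With all libraries they missed the threshold after median-of-ratios scaling (-0.44, adjusted p = 0.0645, and -0.43, adjusted p = 0.0507). They passed it after quantile normalization (-0.65, adjusted p = 0.00363, and -0.63, adjusted p = 0.00234).

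BAT was lower in Fabp4 than iWAT (difference -0.91, adjusted p = 8.85e-05) and eWAT (-0.88, adjusted p = 0.000118). After median-of-ratios scaling the differences were -0.26 (adjusted p = 0.224) and -0.24 (adjusted p = 0.238), whereas after quantile normalization they were -1.32 (adjusted p = 1.31e-06) and -1.3 (adjusted p = 1.29e-06). Thigh and brown fat differed by 0.36 (95% interval 0.02 to 0.70, adjusted p = 0.0559). This was -0.19 (adjusted p = 0.401) after median-of-ratios scaling and 0.67 (adjusted p = 0.00143) after quantile normalization, so direction and call both depended on the scaling. The difference passed without tAT 1 (adjusted p = 0.0352) or tAT 2 (adjusted p = 0.0266), and without all the muscle-laden libraries it was 0.81 (adjusted p = 0.00944). White depots did not differ beyond their spread (-0.03 for eWAT minus iWAT, 95% interval -0.37 to 0.31).

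Fabp5, the epidermal type, is found in skin, macrophages and fat cells and lies 187480 bases from Fabp4 on chromosome 3. It stood at 88.1, 94.6, 118 and 97.4 FPKM in tAT 1 to 4, at 53.5, 37.4, 42.0 and 38.9 in BAT, at 368, 278, 219.95 and 363 in eWAT, and at 169, 313, 158 and 207 in iWAT. The thigh libraries lay between the brown and the white ones, with no overlap on either side, while white libraries overlapped each other. Fabp5 was lower in tAT than in iWAT (-1.03, SE 0.21, adjusted p = 0.0012) and eWAT (-1.59, adjusted p = 1.19e-05) and higher than in BAT (1.2, adjusted p = 9.99e-05). BAT was lower than iWAT by a difference of -2.23 (adjusted p = 8.32e-08) and than eWAT by -2.79 (adjusted p = 4.93e-09), and after median-of-ratios scaling by -1.59 and -2.16, which still passed. Without the muscle-laden libraries, which left tAT 3 alone for thigh fat, the difference from iWAT was -0.78 and that from eWAT -1.34.

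Between white depots Fabp5 averaged 307 ± 71.1 FPKM in eWAT and 212 ± 70.7 in iWAT (SD, n = 4 each), a difference of 0.56 (adjusted p = 0.0827) that passed without eWAT 3 (0.71, adjusted p = 0.0254) or iWAT 2 (0.76, adjusted p = 0.0125). Macrophage markers had the same order of depots. The 10 of them summed to 189 to 348 FPKM in tAT, 32.6 to 53.1 in BAT, 1041 to 2027 in eWAT and 557 to 900.5 in iWAT, and 3 of them averaged below 1 FPKM in BAT. Within depots the match was uneven. Fabp5 and the macrophage sum were both highest in iWAT 2 (313 and 900.5 FPKM), but iWAT 4, with the lowest sum of its depot (557), had the second highest Fabp5 (207). Among thigh libraries Fabp5 was highest in tAT 3 (118), where the macrophage sum was 209, and it was 94.6 in tAT 2, where that sum was highest (348). The part of macrophages in the Fabp5 differences was not tested. Keratinocyte markers, of a cell type rich in this protein, summed to no more than 2.98 FPKM in any library.

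The make-up of the binding protein transcripts differed by depot. Of the summed FPKM of Fabp3, Fabp4 and Fabp5, which does not depend on the scaling of a library, Fabp3 took 0.736 ± 0.181% in tAT, 14.6 ± 1.89% in BAT, 0.00544% in eWAT and 0.00536% in iWAT. Fabp5 took 0.772 ± 0.0999% in tAT, 0.366 ± 0.0308% in BAT, 1.63 ± 0.224% in eWAT and 1.12 ± 0.369% in iWAT. Fabp4 made up the rest, from 83.1 to 87.6% in BAT libraries and from 98.1 to 99.2% in the others. These shares are descriptions and were not tested. The other Fabp symbols looked up, Fabp1, Fabp2, Fabp6, Fabp7, Fabp9 and Fabp12, were too low to be tested. Binding protein genes under other symbols were not looked up. Fabp9 and Fabp12, neighbours of Fabp4 on chromosome 3, averaged at most 0.661 and 1.08 FPKM in any depot.

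**Figure D2:**
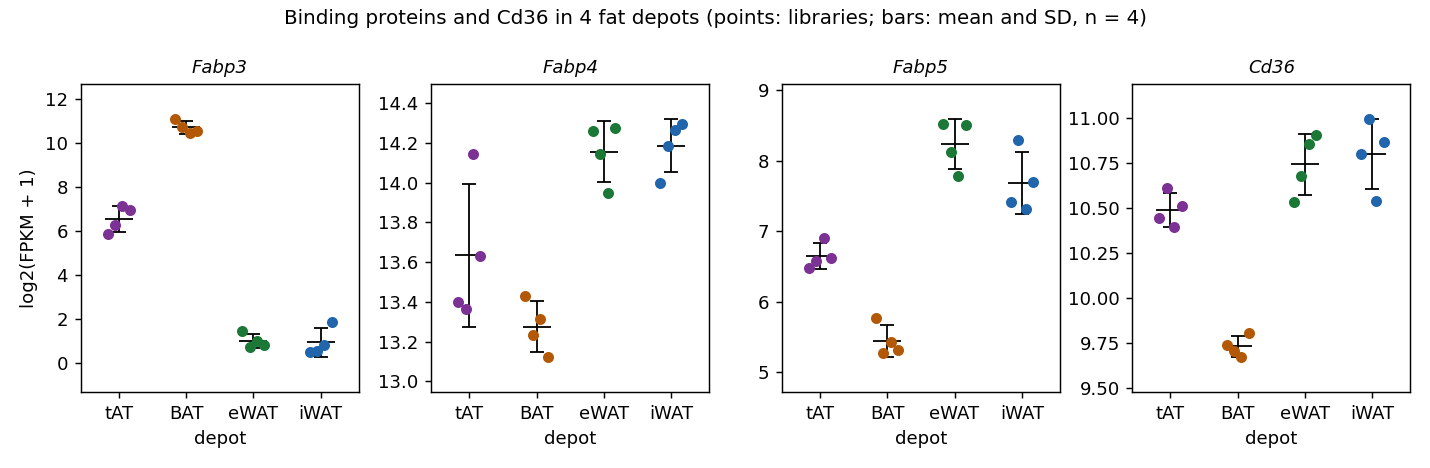
Levels of Fabp3, Fabp4, Fabp5 and Cd36 as log2(FPKM + 1) in tAT, BAT, eWAT and iWAT, each gene on its own axis range, with points for libraries and bars for the mean and SD (n = 4). Fabp3 was highest in BAT (1394 to 2188 FPKM), intermediate in tAT and near the floor in white fat, whereas Fabp5 and Cd36 were lowest in BAT.

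Cd36, the fatty acid receptor of the plasma membrane, was abundant and even within a depot. It stood at 1394, 1563, 1346 and 1459 FPKM in tAT 1 to 4, at 855, 833, 816 and 895 in BAT, at 1483, 1638, 1853 and 1918 in eWAT, and at 1786, 2041, 1487 and 1869 in iWAT. All thigh and white libraries lay above all brown ones, and thigh libraries overlapped the lower white ones. BAT was lower than iWAT by a difference of -1.07 (SE 0.11, adjusted p = 2.98e-07) and than eWAT by -1.01 (adjusted p = 4.86e-07). After median-of-ratios scaling the differences were -0.42 (adjusted p = 0.00717) and -0.37 (adjusted p = 0.0124), so Cd36 was lower also relative to most genes. Thigh fat exceeded BAT by 0.76 (adjusted p = 2.01e-05), or 0.21 after that scaling (adjusted p = 0.156) and 0.95 after quantile normalization (adjusted p = 4.94e-06).

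Thigh fat was lower in Cd36 than iWAT by a difference of -0.31 (adjusted p = 0.0351), a call at the edge of the threshold. The adjusted p was 0.0765, 0.0576 and 0.0645 without tAT 1, 3 or 4 and 0.0636, 0.114 and 0.0875 without iWAT 1, 2 or 4, while the difference stayed between -0.25 and -0.32. It was -0.20 (adjusted p = 0.204) after median-of-ratios scaling and -0.0698 (adjusted p = 0.665) after quantile normalization. Without the muscle-laden libraries, with tAT 3 alone for thigh fat, it was -0.41. Against eWAT the difference was -0.25 (95% interval -0.49 to -0.02, adjusted p = 0.0612), which passed without eWAT 1 (adjusted p = 0.0262) or iWAT 3 (adjusted p = 0.0383) and was 0.12 after quantile normalization. White depots differed by -0.06 for eWAT minus iWAT (95% interval -0.29 to 0.18, adjusted p = 0.757). Endothelial cells also make CD36, and 10 endothelial markers, each averaging at least 1 FPKM in every depot, summed to 348 to 433 FPKM in tAT, 243 to 411 in BAT, 178 to 508 in eWAT and 225 to 352 in iWAT, overlapping ranges. The FPKM of Cd36 was 1.16 to 1.39 of that of Adipoq, the adiponectin gene of mature fat cells, in BAT, against 0.400 to 0.518 in eWAT and 0.458 to 0.552 in iWAT, and it was 0.579 to 0.760 in tAT. Adiponectin was thus lower in BAT by more than Cd36 was.

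Slc27a1 (FATP1), an insulin-responsive transporter of muscle and fat, was the main Slc27 transcript outside BAT. It stood at 134, 116, 201 and 152 FPKM in tAT 1 to 4, at 54.5, 49.5, 47.8 and 52.6 in BAT, at 122, 126, 130.1 and 111 in eWAT, and at 129.8, 125, 154 and 147 in iWAT. Every brown library lay below every other one, and the thigh and white libraries overlapped. BAT was lower than iWAT by a difference of -1.42 (SE 0.13, adjusted p = 9.46e-08) and than eWAT by -1.24 (adjusted p = 3.86e-07), and by -0.78 (adjusted p = 0.000162) and -0.61 (adjusted p = 0.00113) after median-of-ratios scaling. Thigh fat exceeded BAT by 1.51 (adjusted p = 1e-07), or 0.97 after that scaling.

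The highest value of Slc27a1, 201 FPKM, was in tAT 3. Thigh fat differed from iWAT by 0.09 (95% interval -0.19 to 0.37, adjusted p = 0.624) and by -0.0585 without tAT 3. With the muscle-laden libraries left out, tAT 3 alone stood for thigh fat and the difference was 0.54. Against eWAT the difference was 0.27 (95% interval -0.01 to 0.55, adjusted p = 0.0931). It passed without tAT 2 (0.39, adjusted p = 0.0159) and after median-of-ratios scaling (0.36, adjusted p = 0.0391). It also passed with mitochondrially encoded genes left out of the scaling (0.46, adjusted p = 0.00256), an alternative chosen after seeing the data. The difference of tAT 3 alone from eWAT, without the muscle-laden libraries, was 0.72. White depots differed by -0.18 (95% interval -0.46 to 0.10, adjusted p = 0.378).

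Slc27a2 (FATP2), known as the transporter and very long-chain acyl-CoA synthetase of liver and kidney, had the pattern of Fabp3. It stood at 2.03, 1.98, 9.93 and 7.18 FPKM in tAT 1 to 4 and at 99.0, 86.6, 88.5 and 95.4 in BAT. In eWAT it stood at 0.116, 0.364 and 0.779 and was listed at 0 in eWAT 4, and in iWAT it stood at 0.115, 0.0116, 0.0319 and 0.317. Every thigh library exceeded every white one and none came near BAT. Thigh fat exceeded iWAT by 2.26 (SE 0.34, adjusted p = 0.000196) and eWAT by 2.06 (adjusted p = 0.00015) and was below BAT by a difference of -4.13 (adjusted p = 9.15e-08). BAT exceeded iWAT by 6.39 (adjusted p = 3.4e-10) and eWAT by 6.18 (adjusted p = 3.56e-10). The added 1 FPKM understates these differences, since white levels were below 1.

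Among thigh libraries Slc27a2 was highest in tAT 3, where muscle markers were lowest, and then in tAT 4. Without the muscle-laden libraries, tAT 3 alone stood for thigh fat and exceeded iWAT by 3.30 and eWAT by 3.09. The FPKM of Slc27a2 was 0.0131 to 0.0215 of that of Ucp1 in tAT and 0.0176 to 0.0235 in BAT. These ranges overlapped.

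Slc27a3 (FATP3), better known as an acyl-CoA synthetase than as a transporter, was low in every depot. It averaged 1.87 ± 0.724 FPKM in tAT, 0.804 ± 0.248 in BAT, 3.01 ± 1.02 in eWAT and 2.06 ± 0.558 in iWAT (SD, n = 4 each). Thigh libraries held 2.72, 2.23, 1.38 and 1.18 FPKM, overlapping both white depots. BAT was lower than iWAT (-0.76, adjusted p = 0.00256) and eWAT (-1.13, adjusted p = 7.76e-05), but against iWAT this was -0.41 after median-of-ratios scaling (adjusted p = 0.0642) and -0.17 after quantile normalization (adjusted p = 0.415). Thigh fat exceeded BAT by 0.65 (adjusted p = 0.00837), or 0.37 after median-of-ratios scaling (adjusted p = 0.103) and 0.13 after quantile normalization (adjusted p = 0.586). It was lower than eWAT by a difference of -0.48 (adjusted p = 0.0465), a call at the edge of the threshold. It was lost without tAT 3 or 4 (adjusted p = 0.112 and adjusted p = 0.152), without eWAT 1 or 2 (adjusted p = 0.0753 and adjusted p = 0.165) and without BAT 1, 2 or 3 or iWAT 2 or 3 (0.0515 to 0.0556). Thigh fat did not differ from iWAT beyond the spread (-0.11, 95% interval -0.53 to 0.31, adjusted p = 0.699), nor eWAT from iWAT (0.37, 95% interval -0.04 to 0.79, adjusted p = 0.211).

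Slc27a4 (FATP4), the form known from intestine and skin, was low and even. It stood at 8.46, 7.34, 9.67 and 8.41 FPKM in tAT 1 to 4, at 7.21, 7.24, 4.996 and 5.84 in BAT, at 13.9, 13.9, 12.9 and 12.9 in eWAT, and at 11.6, 12.3, 10.4 and 11.2 in iWAT. No depots overlapped, so the order ran from BAT through tAT and iWAT to eWAT. Thigh fat was lower than iWAT (-0.39, SE 0.11, adjusted p = 0.00858) and eWAT (-0.61, adjusted p = 0.000181). Without the muscle-laden libraries the difference from iWAT was -0.21 (adjusted p = 0.23). Thigh fat exceeded BAT by 0.38 (adjusted p = 0.0049), a direction that turned under median-of-ratios scaling (-0.10, adjusted p = 0.427) and quantile normalization (-0.19, adjusted p = 0.155). BAT was lower than iWAT (-0.77, adjusted p = 7.11e-06) and eWAT (-0.98, adjusted p = 4.05e-07). Against iWAT this was -0.19 after median-of-ratios scaling (adjusted p = 0.127). The white depots differed by 0.21 (95% interval -0.01 to 0.44, adjusted p = 0.183) although their libraries did not overlap.

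**Figure D3:**
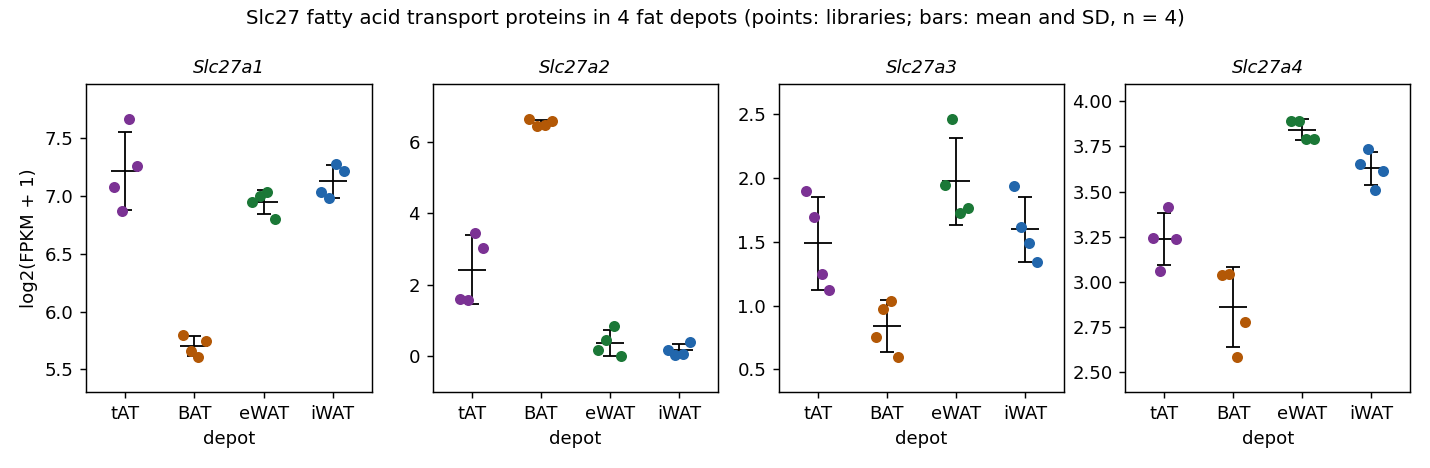
Levels of Slc27a1, Slc27a2, Slc27a3 and Slc27a4 as log2(FPKM + 1) in tAT, BAT, eWAT and iWAT, each gene on its own axis range, with points for libraries and bars for the mean and SD (n = 4). Slc27a2 alone among these 4 was highest in BAT (86.6 to 99.0 FPKM), with tAT 3 and 4 above tAT 1 and 2.

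Within the Slc27 family the leading transcript changed between depots. Of the summed FPKM of the 4 genes, Slc27a1 took 90.6 ± 0.433% in tAT, 33.9 ± 0.319% in BAT, 88.0 ± 0.816% in eWAT and 91.0 ± 1.43% in iWAT. Slc27a2 took 2.92 ± 1.67% in tAT and 61.3 ± 0.942% in BAT, and at most 0.534% in any eWAT and 0.197% in any iWAT library. Slc27a4 took 5.21 ± 0.685% in tAT, 4.19 ± 0.680% in BAT, 9.63 ± 0.618% in eWAT and 7.53 ± 1.12% in iWAT. The Slc27a1 share of the thigh libraries lay within the iWAT range. Their Slc27a2 share (1.38 to 4.465%) was above that of every white library. Their Slc27a4 share (4.345 to 5.78%) was below that of every iWAT library (6.265 to 8.82%). The make-up of this family was described and not tested. The liver and heart forms Slc27a5 and Slc27a6 averaged at most 0.231 and 0.296 FPKM in any depot and were too low to be tested.

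**Figure D4:**
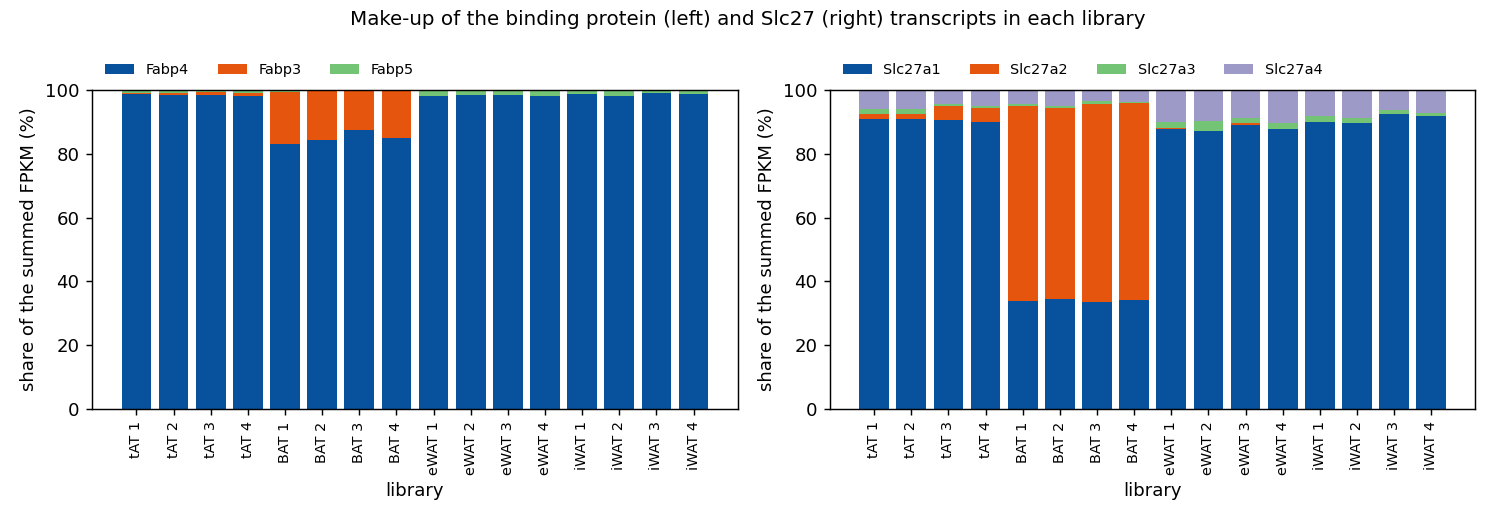
Share in percent of the summed FPKM of Fabp3, Fabp4 and Fabp5 (left) and of Slc27a1 to Slc27a4 (right) in each library of tAT, BAT, eWAT and iWAT. BAT stands apart in both: Fabp3 took 12.01 to 16.5% of the binding protein transcripts there and Slc27a2 60.003 to 62.2% of the Slc27 transcripts.

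By comparison, thigh fat against iWAT had 2 of 8 members higher (10.5% of all tested genes were) and 4 lower (29.4% of all). Those higher were Fabp3 and Slc27a2, and those lower Fabp4, Fabp5, Cd36 and Slc27a4. The median difference was -0.209, against -0.111 over all genes. Only 2 were lower after median-of-ratios scaling, and 0 without the muscle-laden libraries, when 2738 genes in all passed against 5975. With a single thigh library left, those lost calls do not show that the differences were gone: Cd36 was at -0.41 and Fabp5 at -0.78, beside Fabp4 at -0.0408 and Slc27a4 at -0.21. Of all calls 26.4% were higher in thigh fat, or 41.4% after median-of-ratios scaling. Thigh fat against eWAT had 2 higher (21.6% of all) and 4 lower (36.0% of all), with a median of -0.368 against -0.0836. Of all calls 37.5% were higher in thigh fat, or 45.7% after median-of-ratios scaling and 49.2% after quantile normalization. Those members higher were Fabp3 and Slc27a2 again, and those lower Fabp4, Fabp5, Slc27a3 and Slc27a4.

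Thigh fat against BAT had 5 members higher (58.6% of all) and 2 lower (11.2% of all), with a median of 0.513 against 0.441 over all genes. The 5 were Fabp5, Cd36, Slc27a1, Slc27a3 and Slc27a4, and their share was near that of all genes. Of all calls in this comparison 83.9% were higher in thigh fat, or 51.0% after median-of-ratios scaling, when 2 members, Fabp5 and Slc27a1, were higher.

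BAT against iWAT had 2 members higher (12.7% of all) and 6 lower (61.5% of all), with a median of -0.84 against -0.535. BAT against eWAT likewise had 2 higher (15.2% of all) and 6 lower (59.0% of all), with a median of -0.998 against -0.517. Of all calls 17.2% were higher against iWAT and 20.5% against eWAT, or 47.8% and 48.8% after median-of-ratios scaling. Under that scaling 3 members, Fabp5, Cd36 and Slc27a1, were still lower than in iWAT. These comparisons share their BAT libraries, as the thigh comparisons share theirs.

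Between eWAT and iWAT limma called 0 of 8 members higher (8.48% of all) and 0 lower (5.52% of all), with a median of 0.134 against -0.00271. At an unadjusted p under 0.05 there was 1, Fabp5, and limma without its trend and robust options also called 0. The intervals given above bound how far Fabp4, Cd36, Slc27a1 and Slc27a4 could differ on the log2(FPKM + 1) scale. For Slc27a2 the difference was 0.21 (interval -0.53 to 0.94, adjusted p = 0.721 from limma). Its FPKM was 2.65 times as high in eWAT, but every white library was below 1 FPKM. Slc27a2 passed the filter only through tAT and BAT, so a call between white depots was hardly possible. For the low Fabp3, Slc27a2 and Slc27a3 the added 1 FPKM shrinks differences, and the intervals do not bound the FPKM ratio. For Fabp5 the interval ran from 0.12 to 1, wholly above 0, although the adjusted p from limma was 0.0827.

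**Figure D5:**
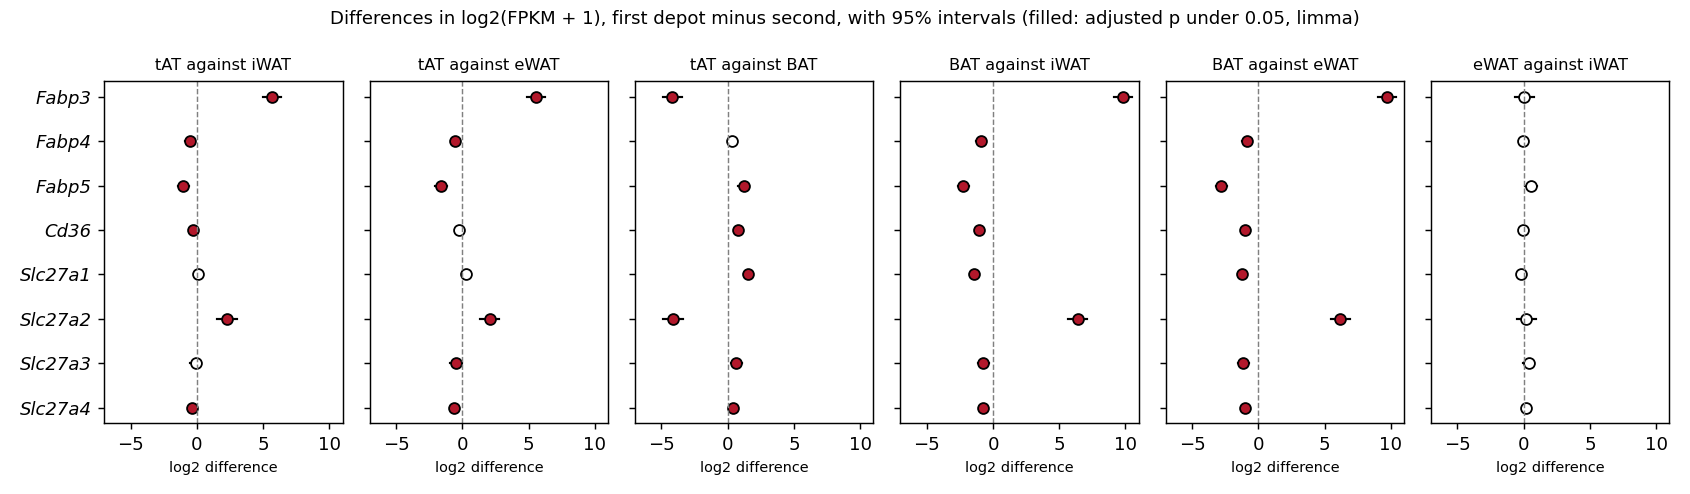
Log2 differences of the 8 members in 6 comparisons, the depot named first minus the other, with 95% intervals, filled where the adjusted p from limma was under 0.05. Fabp3 and Slc27a2 lie right of 0 for tAT and BAT against white fat and left of 0 for tAT against BAT (-4.17 and -4.13), while no member passed between eWAT and iWAT.

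Other genes of the uptake route were read from a list of 28, all of them measured and 19 high enough to test. Thigh fat had 2 of these 19 higher and 5 lower than iWAT, 3 higher and 7 lower than eWAT, and 9 higher and 4 lower than BAT. The shares of all tested genes were 10.5% higher and 29.4% lower than iWAT, 21.6% and 36.0% for eWAT, and 58.6% and 11.2% for BAT. BAT had 4 higher and 8 lower than iWAT (12.7% and 61.5% of all) and 4 higher and 9 lower than eWAT (15.2% and 59.0% of all). Of eWAT against iWAT, limma called 0 higher and 1 lower (8.48% and 5.52% of all), with 4 of 19 at an unadjusted p under 0.05 in either direction. The median difference of the list was 0.254 for tAT against BAT, where that of all genes was 0.441, and -0.484 for BAT against iWAT, where it was -0.535. Ppara, a nuclear receptor that binds fatty acids, rose most of these in both brown and thigh fat against white fat. It averaged 12.2 ± 1.74 FPKM in tAT, 49.0 ± 11.6 in BAT, 1.59 ± 0.910 in eWAT and 3.15 ± 1.18 in iWAT (SD, n = 4 each), and thigh fat exceeded iWAT by 1.71 (adjusted p = 9.14e-05) and eWAT by 2.40 (adjusted p = 1.12e-06). BAT exceeded iWAT by 3.61 (adjusted p = 2e-09) and eWAT by 4.30 (adjusted p = 2.07e-10), and tAT was below BAT by a difference of -1.90 (adjusted p = 5.1e-06).

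Lpl and Ptrf were lower in thigh fat than in iWAT. Lpl, the lipase that frees them from lipoproteins, averaged 1526 ± 191 FPKM in tAT and 2564 ± 194 in iWAT (difference -0.75, adjusted p = 0.000107). Ptrf (Cavin1), a coat protein of the caveolae that fat cells use for uptake, averaged 345 ± 24.6 FPKM in tAT, 99.8 ± 6.55 in BAT, 691 ± 38.0 in eWAT and 577 ± 46.3 in iWAT. Thigh fat was lower in Ptrf than iWAT (-0.74, adjusted p = 1.93e-05) and eWAT (-1.0, adjusted p = 2.45e-07) and higher than BAT (1.78, adjusted p = 1.28e-10). BAT was lower than iWAT by a difference of -2.52 (adjusted p = 9.29e-13) and than eWAT by -2.78 (adjusted p = 2.55e-13). Rxra, the partner receptor of the PPARs, was lower in BAT than in iWAT by a difference of -1.95 (adjusted p = 1.24e-10) and than in eWAT by -1.96 (adjusted p = 8.62e-11), and higher in tAT than in BAT by 1.82 (adjusted p = 7.05e-10). Among enzymes that trap fatty acids as acyl-CoA, Acsl3 rose in tAT against iWAT (0.80, adjusted p = 0.00134) and Acsl5 fell in tAT against BAT (-1.04, adjusted p = 1.41e-05). Acsl1 averaged 725 ± 55.6 FPKM in tAT, 709.9 ± 59.1 in BAT, 365 ± 55.0 in eWAT and 599 ± 95.03 in iWAT, and thigh fat exceeded eWAT by 1.00 (adjusted p = 1.12e-05), as did BAT by 0.97 (adjusted p = 4.49e-06). Acsl1 was the gene of this list that was lower in eWAT than in iWAT (-0.71, adjusted p = 0.00207). Lmf1, a factor that folds lipases, rose in BAT against iWAT (1.09, adjusted p = 1.57e-05), and Gm6484 (Angptl8), a secreted inhibitor of Lpl, fell in tAT against eWAT (-1.03, adjusted p = 0.0093).

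The genes whose pattern over the 16 libraries came closest to each member were found among 8673 genes. Likeness was the root mean square difference between the 2 genes' log2(FPKM + 1) deviations from their own means, so a smaller value is closer. For Fabp3 these were Fabp3-ps1 (0.717), Ucp1 (1.12) and Cidea (1.18), against the gene's own deviation of 4.14. For Slc27a2 they were Pank1 (0.377), Acot11 (0.479) and Cox7a1 (0.653), against 2.61. For Fabp5 they were Slc48a1 (0.203), Hmox1 (0.208) and S100a10 (0.215), and for Cd36 Aplp2 (0.0845), Snap29 (0.0953) and Pak2 (0.0982). Fabp4 came closest to Psmb1 (0.112), Tonsl (0.117) and Iah1 (0.12), and Slc27a1 to Sh3glb2 (0.127), Hoxc6 (0.14) and Tap2 (0.149). Slc27a3 came closest to Scarb1 (0.185), Arhgap18 (0.198) and Rin3 (0.22), and Slc27a4 to Ppp2r1a (0.0806), Pgs1 (0.0812) and Ralb (0.0823). Between members the closest pair was Fabp4 and Slc27a4 (0.198), and Fabp3 was closer to Slc27a2 (1.77) than to any other member.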

How the data were processed

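Per the labels' protocols, RNA of flash-frozen depots was taken up in Trizol and made into TruSeq libraries. The authors deposited FPKM per gene and library. The submitters' processing notes name TopHat, TopHat2 2.0.9, Cufflinks 2.1.1 and mm10, without settings or annotation. An FPKM value keeps no read number, so depth is unknown and no counting interval was computed, and an exact 0 can be a failed estimate. No pair of libraries held identical values.

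For each symbol the entry with the highest mean was kept. Genes reaching 1 FPKM in 4 or more libraries (14991) entered a limma 3.58.1 model on log2(FPKM + 1) in R 4.3.3, with trend and robust moderation, 1 fit for all 16 libraries grouped by title, and Benjamini-Hochberg adjustment over all tested genes. Locations, transcripts and shared 50-base windows are from GENCODE vM21, and sequences before start sites from RefSeq (GRCm38.p6), where 6 of 8 members matched. A simulation of tAT against iWAT over 14991 genes recovered 82% of 100 genes shifted by 1 log2 unit and 98% of 100 shifted by 2, with 14 false among 194 calls. Shifted genes were drawn from those averaging above 2 in iWAT on the log2(FPKM + 1) scale. Noise was drawn separately for each gene, with the same spread in every depot. The real comparison called 5975 genes, far more than were shifted. The rates thus do not cover genes as low in iWAT as Fabp3, Slc27a2 and Slc27a3, nor muscle content that shifts many genes of a library together. They also do not cover a depot more variable than the others, or changes in so many genes.

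The members and lists were chosen with earlier results of these data known. The text names all members, up to 2 risers and 2 fallers of the uptake list in each comparison, and the genes closest to each member.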

Additional observations from a re-analysis of the deposited data

Results flagged for a closer look

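In 36 groups of 4 libraries (8 members and Fabp3-ps1 in each depot), 1 library lay far from the other 3 by Dixon's test, and chance flags about 1 group in 20. This was Fabp3 in iWAT 4, whose 2.63 FPKM compares with 0.387, 0.439 and 0.763 in iWAT 1 to 3. iWAT 4 also had the highest sum of muscle markers among them (819 FPKM, against 127 to 390 in the others) and the most myoglobin transcript (Mb, 7.04 FPKM, against 0.420 to 1.29), and the part of muscle in this value was not tested. The value was low beside every thigh library (56.5 FPKM or more).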

How the results depend on the processing

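Leaving out a library, other filters and pseudocounts, summing rows of a symbol and the other fits kept most member differences on their side of the threshold. Of 1296, 1221 were unchanged in direction and call, 44 lost a call, 17 gained one and 14 changed sign. Many could not change direction: other filters, summed rows or leaving out a library of a depot outside the comparison left the difference itself as it was. The count of 1221 is therefore no measure of robustness. With tAT 1, 2 and 4 and BAT 3 and 4 left out, and the lone thigh library assumed to vary like the other depots, fewer genes passed (2738 for tAT against iWAT, 4842 against eWAT and 5924 against BAT, where all libraries gave 5975, 8645 and 10466), and 0 members were lower than in iWAT and 2 than in eWAT. Median-of-ratios scaling gave 2 members lower in tAT than in iWAT, 2 lower than in eWAT, 2 higher than in BAT, and 3 lower in BAT than in iWAT, and fits of the compared depots alone gave 2 lower in tAT than in either white depot. Between eWAT and iWAT, leaving out 1 library gave 1049 to 3130 genes (2099 with all) and 0 to 1 members higher. The count was 1049 without eWAT 1, 1345 without eWAT 4, 1142 without iWAT 1 and 1318 without iWAT 4. Signs changed for tAT against iWAT in Slc27a1 (-0.0585 without tAT 3, and -0.0585 to 0.21 over single libraries left out) and Slc27a3 (0.0146 without tAT 4, 0.00624 without iWAT 1, range -0.24 to 0.0146), and for tAT against eWAT in Cd36 (0.12, quantile normalization). For tAT against BAT they changed in Fabp4 (-0.19, median-of-ratios) and Slc27a4 (-0.10, median-of-ratios, and -0.19, quantile normalization). For eWAT against iWAT they changed in Fabp3 (-0.0864 without eWAT 1, -0.0871 without iWAT 1, -0.0694 without iWAT 2, range -0.0871 to 0.38), Fabp4 (0.0409 without eWAT 3, 0.00774 without iWAT 4, range -0.0921 to 0.0409) and Cd36 (0.0117 without eWAT 1, 0.00672 without iWAT 2, range -0.15 to 0.0117). The eWAT against iWAT differences listed did not pass with all libraries either. The cause was not tested. Rescaling without mitochondrially encoded genes was added after seeing the data. With the replicate number as a block, tAT against iWAT had 6007 genes, with 2 members higher and 4 lower, and no count of members changed in any comparison. Of 24 same-numbered pairs of libraries, 4 had deviations correlated above 0.1 (range -0.274 to 0.23). Such correlations cannot tell whether same-numbered libraries came from the same mouse, which the labels do not state.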
